A study of Homo sapiens with 12 samples.

Results

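Integrins are membrane receptors, each built from an alpha and a beta subunit, that bind extracellular matrix proteins outside the cell and connect, through talin, kindlin and focal adhesion proteins, to the actin cytoskeleton inside it. The pairing decides the ligand: ITGB1 pairs with many alpha subunits to form collagen, laminin and fibronectin receptors, and ITGAV pairs with several beta subunits to form receptors for vitronectin and for the latent form of TGF-β. In melanoma, integrins are known for their part in adhesion, migration and invasion. Here 10 integrin subunit genes, 6 alpha (ITGA2, ITGA3, ITGA4, ITGA5, ITGA6 and ITGAV) and 4 beta (ITGB1, ITGB3, ITGB5 and ITGB8), were taken by name from a table of 40173 Ensembl gene IDs. All 10 were found, and 7 of them reached a mean of 2 TPM or more in some condition, as did 12773 gene IDs in all, and these were tested.

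The libraries were made from 624Mel, an established human melanoma cell line, in a 2 by 2 design with 3 libraries in each of 4 conditions. In siCTRL, cells carried a non-targeting siRNA, and in siMITF an siRNA against MITF, the transcription factor that directs the melanocytic programme. The study's methods name 1 siRNA against human MITF. In siCTRL + IFNγ and siMITF + IFNγ, 5 ng/mL of the cytokine interferon γ was added 24 h after transfection and left for 24 h. All 12 libraries therefore came from transfected cells of 1 line, the knockdown rests on transient transfection, and the labels do not say whether replicates were separate cultures. The study's methods state for its experiments in general that replicates were biological and independent, without naming the sequenced libraries, and p-values measure the spread between these libraries. Levels are in TPM, transcript abundance scaled by transcript length and by library, which allows levels of different genes to be compared.

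MITF itself was at 211 ± 21.7 TPM (SD, n = 3) in siCTRL and 42.5 ± 6.87 in siMITF, and at 216 ± 50.1 and 48.0 ± 9.23 in the conditions with IFNγ, with no overlap between siMITF and siCTRL libraries. In bulk RNA, fewer expressing cells and less RNA per cell cannot be told apart. The 7 melanocytic markers were all well expressed, and their summed level ranged from 7931 to 9381 TPM in siCTRL and from 2308 to 2607 TPM in siMITF. Defining markers of other cell types were low: 4 of 5 leukocyte, 3 of 4 fibroblast, 3 of 3 keratinocyte and 3 of 3 endothelial genes were under 2 TPM in every library. The leukocyte sum ranged from 1.96 to 5.55 TPM and the fibroblast sum from 2.47 to 7.81 TPM, both higher in siMITF (at least 4.62 and 6.86 TPM) than in siCTRL (at most 3.19 and 6.38 TPM); the part of this in the integrin results was not tested. The share of TPM in the 13 mitochondrially encoded genes ranged from 7.42% to 16.9% and was lowest in replicate 2 of each condition.

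The promoters of the most strongly raised alpha and beta member are shown because both genes moved together after knockdown. RefSeq promoters, 250 bases before to 50 after a start on GRCh38.p14, were found for 8 of the 10 members (13 promoters). Each was searched on both strands for 5 motifs: the E-boxes CACGTG and CATGTG that MITF is known to bind, TTCNNNGAA (the STAT-binding GAS element), TGANTCA (AP-1) and GGAATG (TEAD). Over all 35116 promoters, 7.26%, 11.1%, 7.66%, 7.71% and 14% held these in turn. The stretches printed are the bases before the start that carry no annotated exon, on the strand of the gene, from 1 of 2 listed promoters of ITGA6, the one with a motif, and 1 of 3 of ITGB5, of which none held one. Capitals mark the E-box CACGTG.
ITGA6, chr2:172427086-172427335, plus strand: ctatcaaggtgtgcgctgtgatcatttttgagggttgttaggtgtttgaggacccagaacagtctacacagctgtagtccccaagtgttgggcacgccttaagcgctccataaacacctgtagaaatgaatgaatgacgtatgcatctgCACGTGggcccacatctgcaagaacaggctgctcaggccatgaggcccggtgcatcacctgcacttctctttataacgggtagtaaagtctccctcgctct
ITGB5, chr3:124887366-124887599, minus strand: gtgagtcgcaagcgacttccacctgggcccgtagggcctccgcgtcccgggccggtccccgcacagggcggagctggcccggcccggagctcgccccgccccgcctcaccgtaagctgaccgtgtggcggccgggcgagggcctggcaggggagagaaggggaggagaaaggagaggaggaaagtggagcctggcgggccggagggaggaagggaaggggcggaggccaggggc

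In the ITGA6 promoter shown the E-box began 101 bases before the start, and the other listed ITGA6 promoter, which begins 250 bases downstream, held none of the 5 motifs. Of the 13 member promoters, 3 held any of them: 1 of 2 of ITGA6, 1 of 2 of ITGB1 with GGAATG and that of ITGA5 with TGANTCA and GGAATG. The windows of ITGA2, ITGA4, ITGAV, ITGB5 and ITGB8 held none of these letters. Such matches describe the sequence and do not show binding.

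The members spanned a wide range of levels, and their order was much the same in all conditions. ITGB1, the common beta partner, was the most abundant in every condition, at 194 ± 25.8 TPM (SD, n = 3) in siCTRL. Below it came ITGA6 (73.9 ± 5.87 TPM), the laminin-binding alpha subunit, ITGB5 (68.6 ± 7.50 TPM) and ITGAV (56.8 ± 6.39 TPM), and neighbours among these overlapped between libraries. ITGB8 (9.85 ± 0.833 TPM), ITGA2 (2.61 ± 0.317 TPM) and ITGA3 (1.46 ± 0.314 TPM) followed without overlap. In siMITF, neither ITGB5 nor ITGA6 overlapped ITGAV below them, where in siCTRL ITGB5 had, and in siMITF + IFNγ the libraries of ITGB8, ITGA3 and ITGA2 overlapped their neighbours.

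The remaining 3 members were close to 0 throughout and were not tested. ITGA5, which forms the main fibronectin receptor with ITGB1, ranged from 0.0185 to 0.200 TPM over the 12 libraries, ITGA4, the partner of ITGB1 that binds VCAM1 and fibronectin, from 0 to 0.0372 TPM, and ITGB3, a partner of ITGAV that is known in melanoma progression, from 0 to 0.0195 TPM. ITGA4 was listed at 0 in 2 libraries and ITGB3 in 5, 3 of them the siCTRL libraries. No depth accompanies TPM values, so no detection limit can be given for them.

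**Figure D1:**
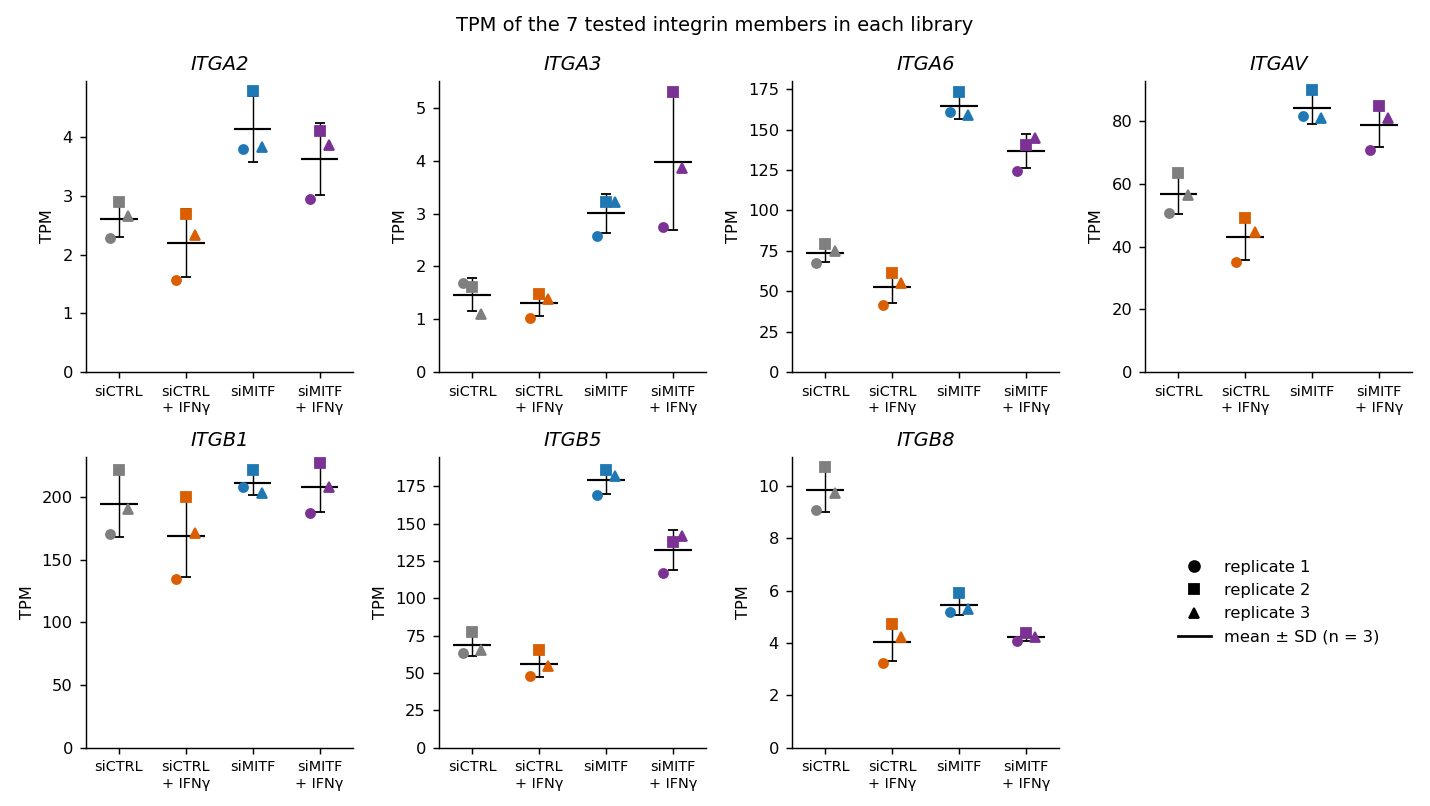
TPM (y axis, starting at 0) of the 7 tested members in each library by condition, with lines for the mean and bars for the SD (n = 3) and 1 symbol per replicate number. ITGA6 and ITGB5 separate by siRNA (41.7 to 79.3 against 125 to 173 TPM for ITGA6), while ITGB8 is highest in the 3 siCTRL libraries (9.08 to 10.7 TPM).

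Knockdown of MITF without IFNγ was compared first, and it asks which subunits differ after treatment with the MITF siRNA alone. Of the 7 tested members, 5 rose, 1 fell and 1 did not pass the test, where a call is an adjusted p under 0.05 from limma over all 12773 tested gene IDs. In this comparison 21% of all tested gene IDs were called higher and 13.8% lower, and the median difference was 0.56 for the members on the log2(TPM + 1) scale against 0.06 for all tested gene IDs. Past a difference of 1 on that scale (with the same test and at least 2 TPM in 1 of the conditions, called the size limit below) were 2 members, ITGA6 and ITGB5, against 6.1% of all gene IDs.

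ITGB5, which pairs with ITGAV to bind vitronectin, measured 63.1, 77.1 and 65.5 TPM in the siCTRL libraries and 169, 186 and 182 TPM in siMITF. Every siMITF library lay above every siCTRL library. The difference was 1.37 on the log2 scale (SE 0.12, adjusted p = 1.7e-06), the largest of the members here. ITGA6 measured 67.6, 79.3 and 74.7 TPM in siCTRL and 161, 173 and 159 TPM in siMITF. Its groups did not overlap either, and the difference was 1.15 (SE 0.12, adjusted p = 1.31e-05). ITGAV rose from 50.6, 63.4 and 56.5 TPM to 81.5, 90.0 and 80.9 TPM, a difference of 0.56 (SE 0.12, adjusted p = 0.00346) with separate groups.

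The tested alpha members with the lowest levels moved the same way. ITGA3, a laminin-binding partner of ITGB1, was at 1.68, 1.60 and 1.10 TPM in siCTRL and 2.58, 3.21 and 3.22 TPM in siMITF (log2 difference 0.71, SE 0.18, adjusted p = 0.00774). ITGA2, a collagen-binding partner of ITGB1, was at 2.27, 2.90 and 2.66 TPM in siCTRL and 3.80, 4.79 and 3.83 TPM in siMITF (log2 difference 0.51, SE 0.15, adjusted p = 0.0214). For both, all siMITF libraries lay above all siCTRL libraries. ITGA3 averaged under 2 TPM in siCTRL (1.46) and siCTRL + IFNγ (1.30). It entered the test only through siMITF (3.00) and siMITF + IFNγ (3.97). The filter therefore favoured a rise of ITGA3 after knockdown, and its place in the counts of rising members rests on that. The call for ITGA2 was lost when siCTRL replicate 1 (adjusted p = 0.0845), siCTRL replicate 3 (0.0529) or siMITF replicate 2 (0.0927) was left out, and with no filter on low values (0.0623). With the replicate number as a block it was kept (adjusted p = 0.00149), where 47.7% of all gene IDs were called. Because 1 TPM was added before taking logs, differences of genes at this level are understated.

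ITGB8, the partner of ITGAV in the receptor that activates latent TGF-β, was the only tested member that fell. Its libraries measured 9.08, 10.7 and 9.72 TPM in siCTRL and 5.18, 5.90 and 5.29 TPM in siMITF. The groups did not overlap, and the level fell by 0.75 on the log2 scale (SE 0.12, adjusted p = 0.000299). ITGB1 was at 171, 222 and 190 TPM in siCTRL and 208, 222 and 204 TPM in siMITF, with overlapping groups and a difference of 0.13 (95% interval -0.17 to 0.42, adjusted p = 0.513).

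In the presence of IFNγ, siMITF + IFNγ libraries were compared with siCTRL + IFNγ libraries, 6 libraries separate from those above. Again 5 of the 7 tested members rose, ITGA2, ITGA3, ITGA6, ITGAV and ITGB5, and none fell. Among all tested gene IDs 18.4% were called higher and 14.7% lower, and the median difference was 0.87 for the members against 0.03 for all. The size limit was passed by 3 members, ITGA3, ITGA6 and ITGB5, and by 5.68% of all gene IDs. ITGA3 is in these counts although it entered the test only through its level in the knockdown conditions.

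ITGA6 measured 41.7, 61.4 and 55.3 TPM in siCTRL + IFNγ and 125, 141 and 145 TPM in siMITF + IFNγ. All 3 knockdown libraries were at least 125 TPM, above the highest control, and the difference was 1.37 (SE 0.12, adjusted p = 2.97e-06). ITGB5 measured 47.8, 65.1 and 54.5 TPM against 117, 138 and 142 TPM, a difference of 1.24 (SE 0.12, adjusted p = 4.85e-06) without overlap. ITGA3 measured 1.02, 1.49 and 1.39 TPM against 2.75, 5.30 and 3.86 TPM. Its knockdown libraries were all higher but spread widely, and the difference was 1.09 (SE 0.18, adjusted p = 0.00044).

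ITGAV measured 35.1, 49.2 and 44.5 TPM in siCTRL + IFNγ and 70.8, 84.7 and 81.0 TPM in siMITF + IFNγ, with a difference of 0.87 (SE 0.12, adjusted p = 0.000148) and no overlap. ITGA2 was at 1.56, 2.69 and 2.34 TPM against 2.94, 4.10 and 3.87 TPM, a difference of 0.54 (SE 0.15, adjusted p = 0.0159). Its call was lost without siCTRL + IFNγ replicate 1 (adjusted p = 0.0565), siMITF + IFNγ replicate 2 (0.0589) or siMITF + IFNγ replicate 3 (0.0522), and with only these conditions in the fit (0.0612). With the replicate number as a block it was kept (adjusted p = 0.000979). ITGB8 was at 3.24, 4.71 and 4.21 TPM against 4.09, 4.39 and 4.23 TPM. These groups overlapped, and the difference was 0.06 (95% interval -0.19 to 0.31, adjusted p = 0.727).

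ITGB1 measured 135, 200 and 172 TPM in siCTRL + IFNγ and 188, 227 and 208 TPM in siMITF + IFNγ. The groups overlapped and the difference of 0.31 did not pass the test (SE 0.13, adjusted p = 0.0941). With the replicate number as a block it passed, at adjusted p = 0.00464, as it did after rescaling without the mitochondrially encoded genes (0.0209), after median centring (0.00444), after quantile normalization (0.00778) and without siCTRL + IFNγ replicate 2 (0.0214). Replicate 2, the highest in ITGB1 in every condition, also had the lowest mitochondrial share, 8.45% in siCTRL + IFNγ against 16.9% in replicate 1.

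**Figure D2:**
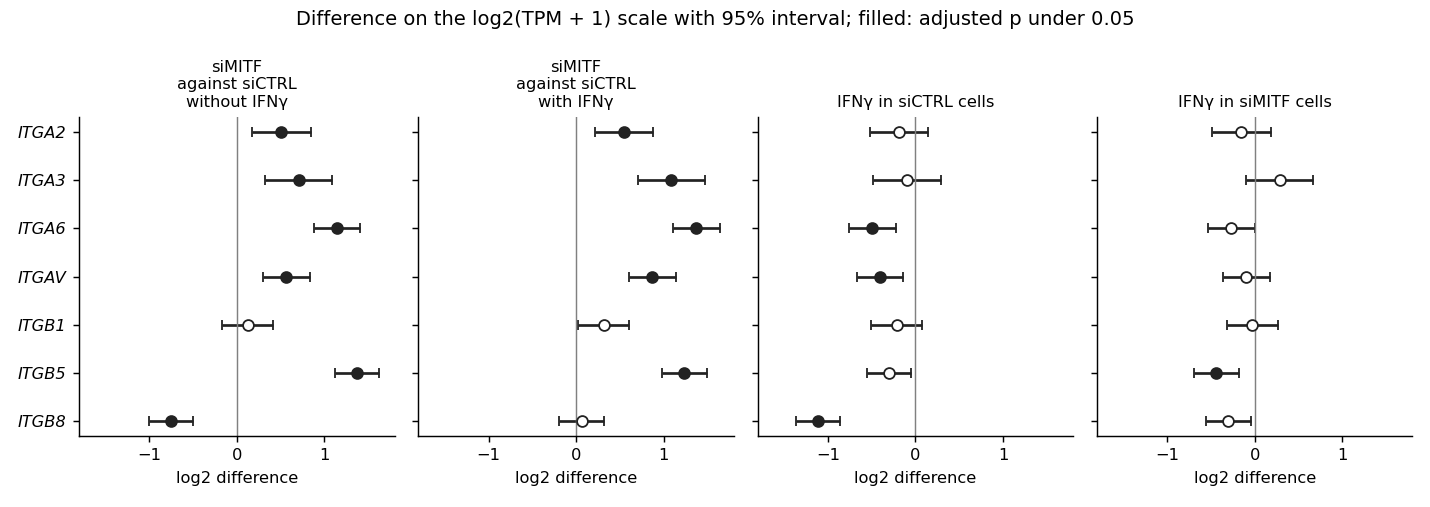
Log2 difference of each tested member (x axis, log2(TPM + 1) scale) with its 95% interval in 4 comparisons, filled where the adjusted p is under 0.05. The knockdown panels show 5 filled points to the right of 0 in both settings, and in the IFNγ panels the filled points lie to the left of 0.

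IFNγ alone was examined in cells with the control siRNA. No tested member rose and 3 fell, ITGA6, ITGAV and ITGB8. Of all tested gene IDs 6.8% were called higher and 6.14% lower (868 and 784; after quantile normalization 1178 and 1647), and the median difference was -0.30 for the members and -0.07 for all. ITGB8 was the 1 member past the size limit, which 2.52% of all gene IDs passed. These libraries share the siCTRL group with the knockdown comparison without IFNγ, so the values stand side by side and were not compared with each other.

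ITGB8 measured 9.08, 10.7 and 9.72 TPM without and 3.24, 4.71 and 4.21 TPM with IFNγ, so every treated library was under every untreated one. It fell by 1.11 on the log2 scale (SE 0.12, adjusted p = 2.3e-05). ITGA6 fell by 0.49 (SE 0.12, adjusted p = 0.0194), from 67.6 to 79.3 TPM across untreated libraries to 41.7 to 61.4 TPM across treated ones. That call was lost without siCTRL replicate 2 (adjusted p = 0.0848) or siCTRL replicate 3 (0.0643), with no filter on low values (0.0614) and with only these conditions in the fit (0.0676). With the replicate block it was kept (adjusted p = 0.000816).

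ITGAV fell by 0.40 (SE 0.12, adjusted p = 0.0496), with 50.6 to 63.4 TPM before and 35.1 to 49.2 TPM after. This call sat at the threshold and was lost in 13 of 22 alternatives, among them leaving out siCTRL replicate 2 (adjusted p = 0.198), siCTRL + IFNγ replicate 1 (0.157) or siCTRL replicate 3 (0.119). With the replicate block it was kept (adjusted p = 0.00118), where 25.7% of all gene IDs were called. The differences of ITGB5 (-0.30, adjusted p = 0.122), ITGB1 (-0.21, 0.351), ITGA2 (-0.19, 0.482) and ITGA3 (-0.10, 0.786) did not pass. That of ITGB5 did with the replicate block (adjusted p = 0.00804), quantile normalization (0.0155) and median centring (0.00448). It also passed after rescaling without the mitochondrially encoded genes (0.045) and without siCTRL + IFNγ replicate 2 (0.0289). In these 7 genes the siCTRL + IFNγ replicate 1 library was the lowest of its group.

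In MITF-depleted cells, IFNγ gave 1 call among the 7 members, a fall, where 7.99% of all tested gene IDs were called higher and 12.2% lower. The median difference was -0.15 for the members and -0.10 for all, and no member passed the size limit that 2.95% of gene IDs passed. ITGB5 fell by 0.44 (SE 0.12, adjusted p = 0.0193), from 169, 186 and 182 TPM to 117, 138 and 142 TPM, with every treated library lower. Its call was lost without siMITF replicate 2 (adjusted p = 0.0749), siMITF replicate 3 (0.0626) or siMITF + IFNγ replicate 1 (0.0675), and with no filter on low values (0.0552). With the replicate block it was kept (adjusted p = 0.000485).

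ITGA6 and ITGB8 did not pass the test in these cells, although their libraries were separate. ITGA6 went from 161, 173 and 159 TPM to 125, 141 and 145 TPM (-0.27, adjusted p = 0.148) and ITGB8 from 5.18, 5.90 and 5.29 TPM to 4.09, 4.39 and 4.23 TPM (-0.30, adjusted p = 0.0891). With the replicate block both passed (adjusted p = 0.022 and 0.0234), which brought the count to 3 of 7 where 35.7% of all gene IDs were then called. Both also passed with quantile normalization (0.0411 and 0.00813), median centring (0.0148 and 0.0138) and without siCTRL + IFNγ replicate 1 (0.0368 and 0.0377). ITGA3 was at 2.58 to 3.22 TPM before and 2.75 to 5.30 TPM after IFNγ (0.28, adjusted p = 0.281), and ITGAV, ITGB1 and ITGA2 differed by -0.09, -0.03 and -0.15 (adjusted p = 0.626, 0.912 and 0.517).

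Both treatments together were set against siCTRL. Of the 7 members 4 rose and 1 fell, beside 21.1% and 23.4% of all tested gene IDs, and the median was 0.47 for the members and -0.04 for all. ITGA3 (0.99), ITGB5 (0.94), ITGA6 (0.88) and ITGAV (0.47) rose, at adjusted p = 0.00061, 3.38e-05, 8.81e-05 and 0.0082. ITGB8 fell by 1.05 (SE 0.12, adjusted p = 1.26e-05) and was the 1 member past the size limit, against 8.75% of all gene IDs. ITGB1 (0.10, adjusted p = 0.578) and ITGA2 (0.36, 0.0782) did not pass, though ITGA2 did with the replicate block (adjusted p = 0.011). ITGA2 also passed with median centring (0.00665) and after rescaling without the mitochondrially encoded genes (0.0301). So it did without replicate 1 of siCTRL + IFNγ (0.0406) or of siMITF + IFNγ (0.0323).

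The interaction term asked whether the effect of IFNγ differed between control and MITF-depleted cells. It was called for 1 of 7 members, ITGB8, at 0.81 on the log2 scale (SE 0.16, 95% interval 0.45 to 1.17, adjusted p = 0.042). Of all tested gene IDs 0.705% had a positive and 0.243% a negative called term, and 0.478% also passed an absolute size of 1, which ITGB8 did not. IFNγ lowered ITGB8 from a mean of 9.85 to 4.05 TPM in siCTRL cells, while the means in siMITF cells were 5.46 and 4.24 TPM. The 3 lower conditions lay between 3.24 and 5.90 TPM, and the 3 siCTRL libraries alone were above that range.

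The ITGB8 interaction was near the threshold. Leaving out 1 library at a time gave values from 0.69 (without siCTRL + IFNγ replicate 1) to 0.90, and the call held in 1 of these 12 fits, that without siCTRL + IFNγ replicate 2. It was also lost with a pseudocount of 0.1 (adjusted p = 0.076) or 0.5 (0.0556) and with no filter (0.0831). With the replicate block it was kept (0.81, SE 0.13, adjusted p = 0.00648), where 2.16% of all gene IDs had a called term. No other member had a term under the threshold, the next in size being ITGA3 (0.38, 95% interval -0.16 to 0.92, adjusted p = 0.85) and ITGAV (0.31, -0.07 to 0.69, 0.782).

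Shares of each subunit in the summed alpha or summed beta TPM of the same library, over all 26 integrin genes, do not depend on the scaling of the library. They are described here without a test. The summed alpha level was 265 ± 21.3 TPM in siCTRL, 198 ± 30.9 with IFNγ, 368 ± 16.2 after knockdown and 328 ± 31.1 with both. The summed beta level was 276 ± 34.4, 231 ± 42.5, 400 ± 16.7 and 347 ± 31.9 TPM in the same order.

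ITGA6 made up 27.9% ± 0.715 (SD, n = 3) of the alpha sum in siCTRL and 44.7% ± 0.209 in siMITF, and 26.5% ± 1.04 and 41.7% ± 1.06 in the conditions with IFNγ. The highest share in any siCTRL or siCTRL + IFNγ library was 28.7% and the lowest in any knockdown library 40.6%. ITGAV held 20.6% to 22.0% in the siCTRL and siCTRL + IFNγ libraries and 22.5% to 24.4% in the knockdown libraries, without overlap. With only the members in the sum this turned, and ITGAV held 42.1% ± 0.844 in siCTRL and 32.9% ± 0.236 in siMITF. ITGB1 and ITGB5 together accounted for nearly all of the beta sum: ITGB5 took 24.9% ± 0.704 in siCTRL and 44.8% ± 1.12 in siMITF, and ITGB1 took 70.4% ± 0.805 and 52.8% ± 1.14. In siMITF + IFNγ the share of ITGB5 was 38.1% ± 1.41 and that of ITGB1 59.9% ± 1.42. ITGB8 made up 3.58% ± 0.140 of the beta sum in siCTRL and 1.75% ± 0.0471 with IFNγ, 1.36% ± 0.0400 after knockdown and 1.23% ± 0.0768 with both, so that the 3 latter conditions lay within 1.18% to 1.81%.

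**Figure D3:**
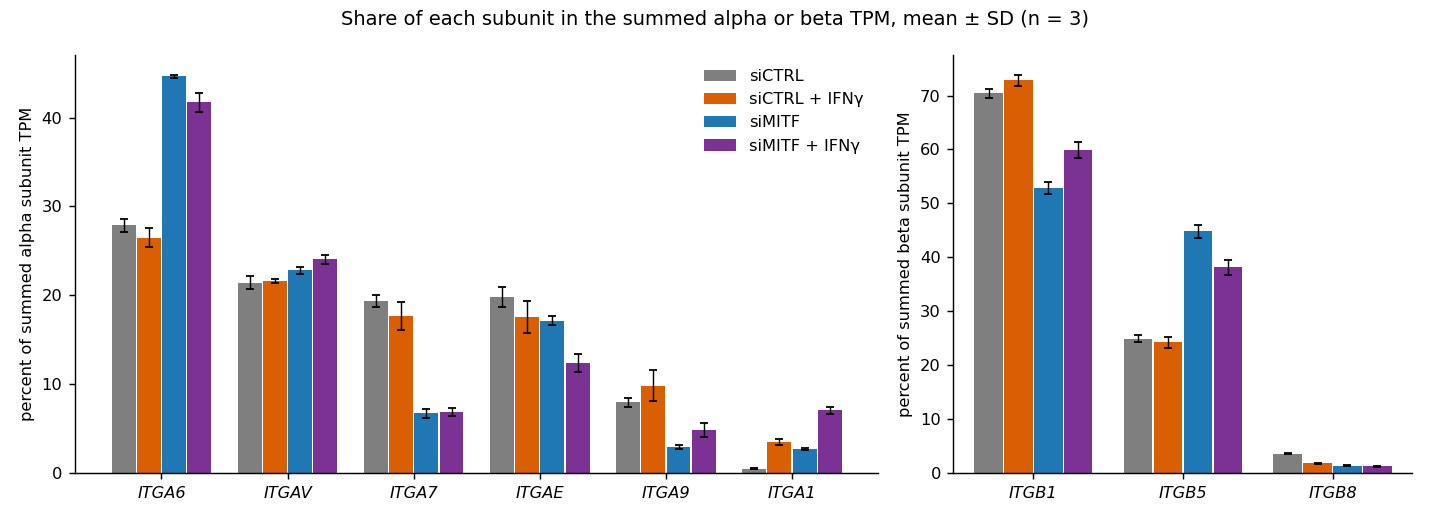
Mean percent of the summed alpha (left) or beta (right) subunit TPM held by each named gene in the 4 conditions, with bars for the SD (n = 3) and the y axes starting at 0. ITGA6 and ITGB5 take larger shares in both siMITF conditions (44.7% and 44.8% without IFNγ), and ITGB1 and ITGA7 smaller ones.

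Among the 16 other integrin subunit genes, 7 were tested, namely ITGA1, ITGA7, ITGA9, ITGA10, ITGAE, ITGAX and ITGB2, and the rest stayed under 2 TPM on average in every condition. After knockdown without IFNγ all 7 passed the test, 4 higher and 3 lower, beside 21% and 13.8% of all tested gene IDs. ITGA1, ITGA10 and ITGAX are in these counts although the filter on low values favoured the direction of each. With IFNγ, 3 were called higher and 2 lower, beside 18.4% and 14.7%. IFNγ gave 1 higher and 3 lower calls in siCTRL cells (6.8% and 6.14% of all gene IDs) and again 1 higher and 3 lower in siMITF cells (7.99% and 12.2%).

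ITGA1, a collagen-binding partner of ITGB1, measured 1.23, 1.12 and 1.26 TPM in siCTRL, 5.18, 7.78 and 7.82 TPM in siCTRL + IFNγ, 9.10, 10.5 and 10.0 TPM in siMITF and 19.5, 24.4 and 25.7 TPM in siMITF + IFNγ. No library of any condition overlapped that of another. ITGA1 was under 2 TPM in every siCTRL library and entered only through other conditions, so the filter favoured its rise from siCTRL. It was the 1 tested integrin gene called higher under each treatment, with log2 differences of 2.30 (SE 0.14, adjusted p = 1.24e-07) for knockdown, 1.83 (adjusted p = 1.35e-06) for IFNγ in siCTRL cells, 1.15 (0.000106) for IFNγ in siMITF cells and 3.45 (1.1e-09) for both against siCTRL. Its interaction term was -0.68 (SE 0.20, adjusted p = 0.23), and -0.68 with adjusted p = 0.0422 under the replicate block. It also passed without siCTRL + IFNγ replicate 1 (-0.85, adjusted p = 0.0343), after median centring (-0.66, 0.0369) and with a pseudocount of 0.1 (-1.19, 0.0432). Its share of the alpha sum went from 0.457% ± 0.0602 in siCTRL to 7.06% ± 0.385 in siMITF + IFNγ.

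ITGA7, a laminin-binding alpha subunit, moved opposite to ITGA6 after knockdown. Its libraries measured 48.8, 56.9 and 48.3 TPM in siCTRL and 26.5, 24.6 and 22.9 TPM in siMITF, all lower, and it fell by 1.03 (SE 0.12, adjusted p = 2.21e-05). With IFNγ the knockdown difference was -0.62 (adjusted p = 0.00138), and IFNγ lowered it by itself in siCTRL cells (-0.55, adjusted p = 0.00765). Its share of the alpha sum was 19.4% ± 0.693 in siCTRL and 6.70% ± 0.533 in siMITF.

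ITGA9, which binds tenascin and osteopontin, fell after knockdown without IFNγ by 0.89 (SE 0.22, adjusted p = 0.00712), from 18.2 to 23.1 TPM to 9.79 to 11.8 TPM. With IFNγ its libraries overlapped (-0.26, adjusted p = 0.396). Under the replicate block ITGA9 also passed for IFNγ in siMITF cells (0.50, adjusted p = 0.00574) and for both treatments against siCTRL (-0.39, adjusted p = 0.0128). ITGAX, a leukocyte integrin, fell from 2.32 to 2.53 TPM to 0.396 to 0.472 TPM (-1.27, SE 0.09, adjusted p = 5.83e-07), and its partner ITGB2 rose from 1.91 to 2.61 TPM to 3.18 to 3.45 TPM (0.41, SE 0.13, adjusted p = 0.0253). ITGAX entered the test through siCTRL alone, so the filter favoured its fall. The ITGB2 call was lost without siCTRL replicate 1 (adjusted p = 0.11) or 3 (0.0678), without any 1 siMITF library (0.0519 to 0.0823), with no filter (0.0594) and with quantile normalization (0.0596).

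ITGA10, another collagen-binding subunit, was at 0.576 to 0.613 TPM in siCTRL and 1.81 to 2.49 TPM in siMITF (0.99, SE 0.12, adjusted p = 5.34e-05). It entered the test through siMITF alone, so the filter favoured its rise. ITGAE, whose usual partner is ITGB7, fell with IFNγ in both settings (-0.59 and -0.63), by 0.59 in siCTRL cells (adjusted p = 0.000274) and by 0.63 in siMITF cells (adjusted p = 0.000128), from 49.9 to 55.4 TPM to 32.2 to 38.4 TPM in the former. Its rise after knockdown was 0.26 (adjusted p = 0.0237) without IFNγ, a call lost without siCTRL replicate 1 or 3 or siMITF replicate 1 or 2 (0.0702 to 0.0966). With IFNγ the rise was 0.22 (adjusted p = 0.0491), a call lost in 15 of 22 alternatives, among them leaving out any 1 of the libraries except siCTRL + IFNγ replicate 2 (0.0518 to 0.159). Exons of HASPIN on the opposite strand cover 6.47% of the exon bases of ITGAE, those of ITGA9-AS1 9.23% of ITGA9 and those of ITGA2-AS1 7.47% of ITGA1, and without strand such reads cannot be told apart. Among the tested members the largest such overlap was 2.75%, of ITGB1 with ITGB1-DT. On the same strand as ITGA1, exons of PELO cover 2.69% and those of RPL17P21 3.08% of its exon bases, which strand would not separate.

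**Figure D4:**
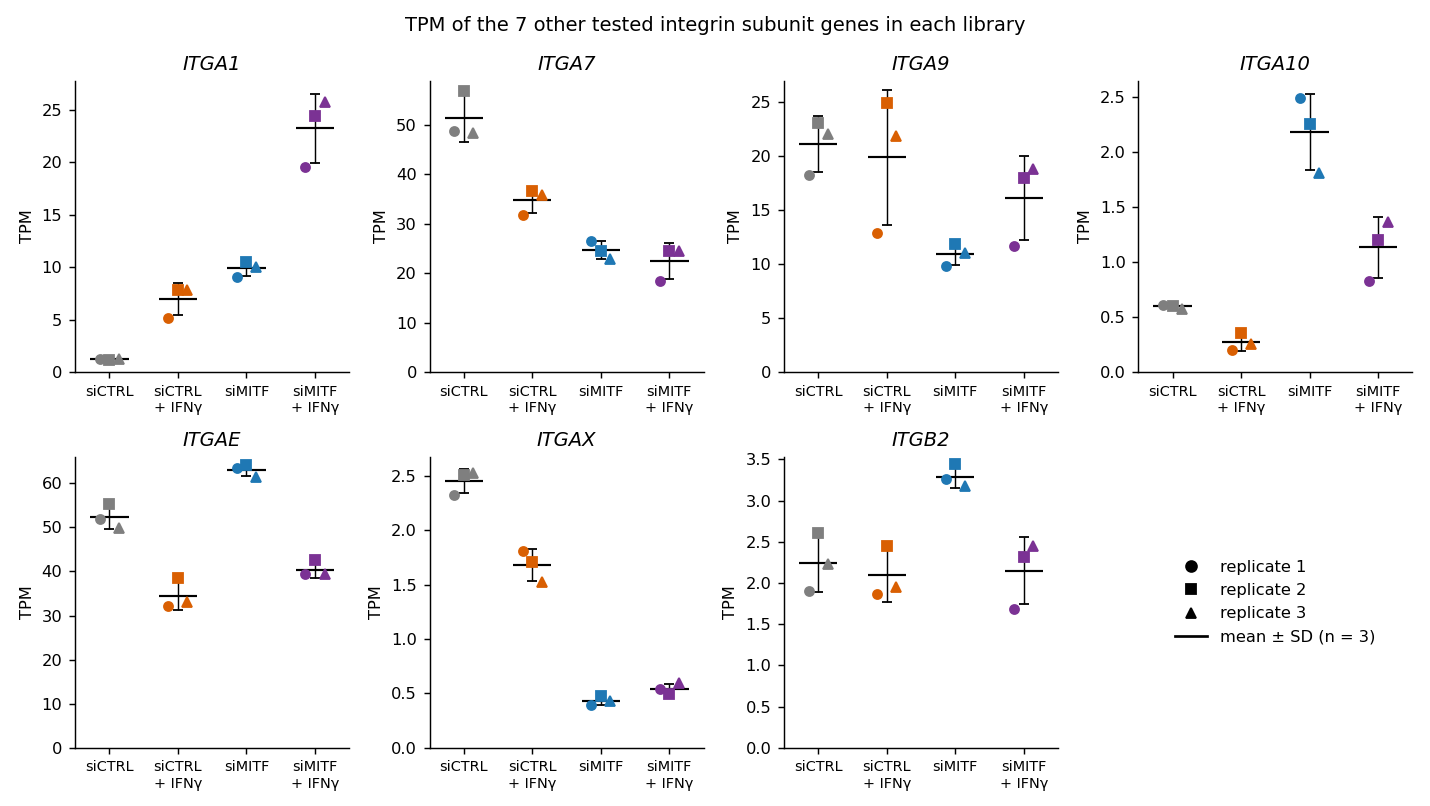
TPM (y axis, starting at 0) of the 7 other tested integrin genes in each library by condition, with the mean and SD (n = 3). ITGA1 is highest in siMITF + IFNγ (19.5 to 25.7 TPM), and ITGA7 and ITGAX are highest in siCTRL (48.3 to 56.9 and 2.32 to 2.53 TPM).

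Integrin ligands were the group around the receptors with the most calls. Of 29 ligand genes 15 were tested, and after knockdown without IFNγ 12 were called higher and 2 lower, with a median of 0.81. With IFNγ the counts were again 12 and 2 (median 0.74). Beside them, 21% and 18.4% of all tested gene IDs were called higher, and 13.8% and 14.7% lower. TNC, the tenascin C that ITGA9 and ITGAV integrins bind, rose from 1.17, 1.86 and 1.53 TPM in siCTRL to 25.3, 28.6 and 29.1 TPM in siMITF (3.51, SE 0.18, adjusted p = 1.93e-08) and reached 76.7, 103 and 106 TPM with both treatments. TNC was under 2 TPM in every siCTRL library and entered only through other conditions, so the filter favoured its rise from siCTRL. It is in the counts of ligands called higher. CCN1, a matricellular ligand of ITGAV and ITGA6 integrins, rose from 12.4, 16.4 and 13.6 TPM to 65.5, 83.5 and 79.6 TPM (2.35, SE 0.15, adjusted p = 1.61e-07).

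SPP1, which encodes osteopontin, a ligand of ITGAV and ITGA9 integrins, moved in opposite directions under the treatments. It measured 107, 117 and 98.3 TPM in siCTRL, 27.3, 30.1 and 24.1 TPM in siMITF, 611, 671 and 570 TPM in siCTRL + IFNγ and 127, 119 and 103 TPM in siMITF + IFNγ. Knockdown lowered it by 1.94 without IFNγ (SE 0.10, adjusted p = 3.33e-08), IFNγ raised it by 2.52 in siCTRL cells (adjusted p = 1.91e-09), and both together left it at 0.12 (95% interval -0.11 to 0.35, adjusted p = 0.378). LAMA5, a laminin alpha chain, rose under each treatment, by 0.82 for knockdown (adjusted p = 1.65e-05) and 0.90 for IFNγ in siCTRL cells (adjusted p = 1.54e-05).

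IFNγ called 4 of the 15 ligands higher and 1 lower in siCTRL cells, beside 6.8% and 6.14% of all tested gene IDs. In siMITF cells it called 4 higher and none lower, beside 7.99% and 12.2%. With the replicate block 8 and 7 were called in all, beside 25.7% and 35.7% of all gene IDs. No ligand had a called interaction term, where the whole table had 121 (276 with the block); under the block those of TNC (-0.63, adjusted p = 0.0326) and SPP1 (-0.45, adjusted p = 0.0127) passed. Both treatments together raised 12 of 15 and lowered none, beside 21.1% and 23.4% of all tested gene IDs. TNC was at 5.25 (SE 0.18, adjusted p = 1.61e-10), CCN1 at 2.68 and LAMA5 at 1.63.

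For the activators and adaptors that link integrins to actin, 18 of 22 genes were tested. Knockdown without IFNγ called 4 of the 18 higher and 3 lower (median 0.10), beside 21% and 13.8% of all tested gene IDs. With IFNγ 2 were higher and 3 lower, beside 18.4% and 14.7% (8 in all with the block, beside 46.3%). FERMT2, the kindlin that activates beta subunits, measured 65.0, 75.0 and 72.9 TPM in siCTRL and 35.0, 40.4 and 36.0 TPM in siMITF (difference -0.92, SE 0.10, adjusted p = 2.15e-05), and in siMITF + IFNγ it was back at 64.0, 66.6 and 62.8 TPM (0.78 against siMITF, adjusted p = 0.000171). Its interaction term was 0.60 (adjusted p = 0.1, and 0.00745 with the block). VCL, vinculin, fell after knockdown (-0.66, adjusted p = 0.00994), and LIMS1, the PINCH1 adaptor, rose (0.55, adjusted p = 0.000551).

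TNS1, tensin 1, which binds beta subunit tails, was the 1 adaptor called for IFNγ in siCTRL cells (1.07, SE 0.17, adjusted p = 0.00109), from 0.779 to 1.16 TPM to 2.02 to 3.85 TPM, and it rose in siMITF cells too (1.14, adjusted p = 0.00047). TNS1 entered the test only through the conditions with IFNγ, so the filter favoured its rise. In siMITF cells FERMT2 also rose, and PXN, paxillin, and PARVB, β-parvin, fell (-0.53 and -0.47, adjusted p = 0.0313 and 0.0344). Of all tested gene IDs, IFNγ called 6.8% higher and 6.14% lower in siCTRL cells, and 7.99% and 12.2% in siMITF cells. With the block the calls were 5 in siCTRL and 8 in siMITF cells, beside 25.7% and 35.7% of all gene IDs. The PXN and PARVB calls were both lost without siMITF replicate 2 (adjusted p = 0.126 and 0.134), siMITF replicate 3 (0.0724 and 0.0771) or siMITF + IFNγ replicate 1 (0.104 and 0.0943), and that of PARVB also without siMITF replicate 1 (0.0549). ITGB1BP1, which binds the ITGB1 tail, fell after knockdown with IFNγ (-0.44, adjusted p = 0.00284). With both treatments 4 of 18 were higher and 6 lower, beside 21.1% and 23.4% of all tested gene IDs. PARVB was the most lowered (-0.76, adjusted p = 0.000854).

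Membrane partners were tested for 9 of 10 genes, of which knockdown called 4 higher and 1 lower without IFNγ and 4 higher and 2 lower with it, beside 21% and 13.8%, and 18.4% and 14.7%, of all tested gene IDs. CD47, which associates with integrins, measured 35.0, 34.6 and 34.6 TPM in siCTRL, 58.1, 68.8 and 64.9 TPM in siCTRL + IFNγ, 51.8, 54.1 and 47.6 TPM in siMITF and 94.6, 91.4 and 84.7 TPM in siMITF + IFNγ. It rose under each treatment (0.54 for knockdown, adjusted p = 0.000202, and 0.86 for IFNγ in siCTRL cells, adjusted p = 8.15e-06), as did CD82, a tetraspanin (0.61 and 0.66, adjusted p = 0.022 and 0.0348). CD63, a tetraspanin of melanosomes and endosomes, fell after knockdown (-0.87, SE 0.06, adjusted p = 2.76e-07), and PLAUR, the urokinase receptor, fell with IFNγ in siMITF cells (-0.34, adjusted p = 0.0404). The PLAUR call was lost without any 1 of the siMITF and siMITF + IFNγ libraries (adjusted p = 0.0574 to 0.13). Those of CD82 were lost for knockdown without siCTRL replicate 1 or 3 or siMITF replicate 1 or 2 (0.0593 to 0.0875). For IFNγ they were lost without siCTRL replicate 1 or 3 or siCTRL + IFNγ replicate 2 or 3 (0.0918 to 0.124), or siMITF replicate 1 (0.052). Both were also lost with no filter on low values (0.0685 and 0.109). With quantile normalization the differences were 0.35 (adjusted p = 0.0884) and 0.45 (0.0577).

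**Figure D5:**
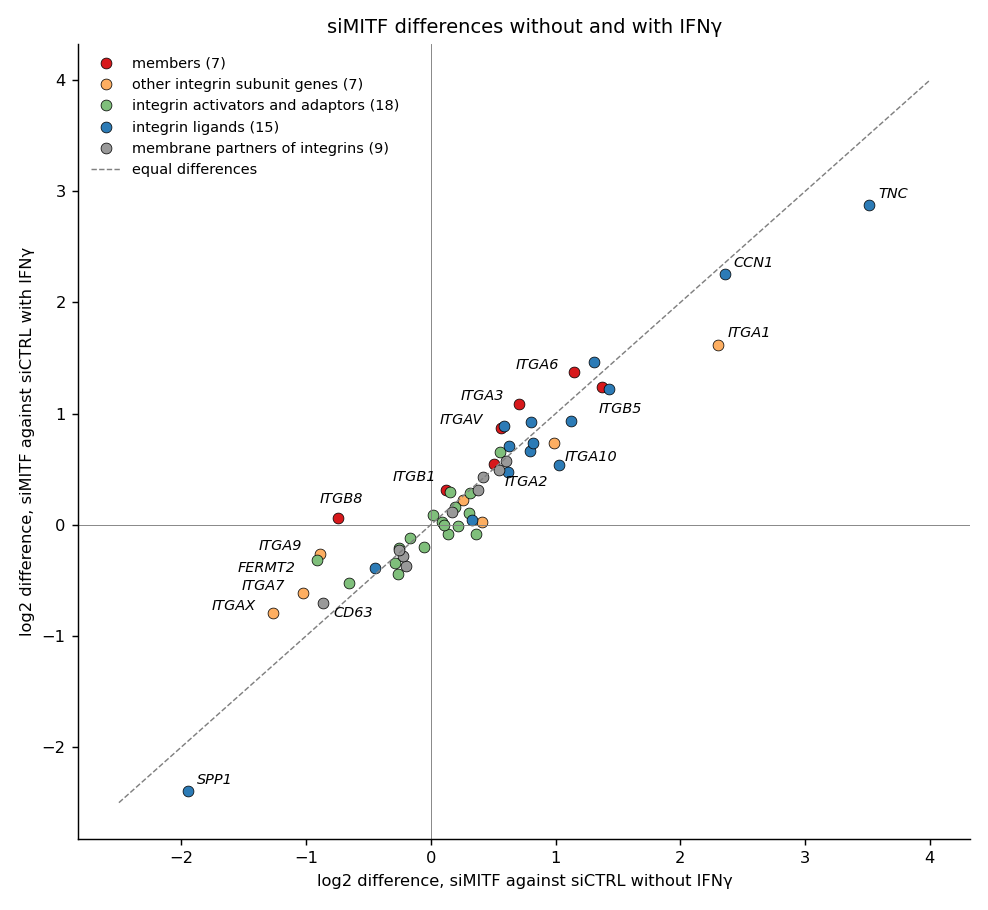
Log2 difference of siMITF against siCTRL without IFNγ (x axis) and with IFNγ (y axis), which share no libraries, for the 56 tested genes of the integrin lists, with a dashed line where both are equal. ITGB8 stands off the line (-0.75 and 0.06), while ITGB5 and ITGA6 lie near it (1.37 and 1.24, and 1.15 and 1.37).

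Genes with the pattern most like that of the members past the size limit were sought among the 8765 tested gene IDs that averaged 10 TPM or more, by Pearson's r of log2(TPM + 1) over the 12 libraries, which differ mainly by condition. Closest to ITGB5 were ADAM19 (r = 0.995), GPD1L (0.994) and SERPINH1 (0.994), and closest to ITGA6 were FAM107B (0.994), PANK2 (0.994) and PDZRN3 (0.993). For ITGB8 the values were lower, with PITHD1 (0.946), ATP2B4 (0.945) and GNPNAT1 (0.936), as for ITGA3 with SHC4 (0.955), PALM2AKAP2 (0.954) and ETNK1 (0.953).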

How the data were processed

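RNA of 12 libraries of 624Mel cells was sequenced by the authors, who trimmed reads with Trimmomatic 0.39 and quantified transcripts with kallisto against the Ensembl GRCh38 transcriptome (release not given in the sources used here). The deposited values are TPM per Ensembl gene ID, so read depth is unknown, and no counting intervals are given. The authors' own tests used DESeq2 1.26.0, which was not used here because it needs counts. Symbols were matched for 35520 of 40173 gene IDs. Gene coordinates are from GENCODE 44 (GRCh38).

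Differences were tested with limma 3.58.1 (R 4.3.3, empirical Bayes with a trend) on log2(TPM + 1), with 1 coefficient for each condition over all 12 libraries. Tested were 12773 gene IDs whose mean reached 2 TPM in any condition, with Benjamini-Hochberg adjustment over all of them for each of 6 comparisons. A gene that reached 2 TPM only where it was higher entered with its direction favoured. The procedure was tested on simulated data. The simulated libraries held no replicate effect and no true interaction, so the simulation does not cover these. The members, gene lists and tests were chosen with earlier results of these data known. Genes named from the other lists were the called ones with non-overlapping libraries, up to 3 by size in each comparison. Replicate numbers, taken from the labels, paired the samples: deviations from condition means correlated for all 18 same-number pairs (0.102 to 0.625, median 0.28), against a median of -0.20 for 36 other pairs. Alternatives were pseudocounts of 0.1 and 0.5, other filters and scalings, no trend, fewer conditions in the fit, the block and leaving out each library. The main fit held no block, nor did the fits that left out a library.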

Additional observations from a re-analysis of the deposited data

Results flagged for a closer look

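ITGB8 was singled out because the effect of IFNγ on it differed between siCTRL and siMITF cells by the test of the difference itself. The interaction term was 0.81 on the log2(TPM + 1) scale (limma, adjusted p = 0.042): IFNγ lowered ITGB8 by 1.11 in siCTRL cells (difference -1.11), while in siMITF cells the difference was -0.30 (adjusted p = 0.0891). The call was lost in 14 of 21 alternatives, with values from 0.69 to 0.92, and was kept with the replicate block (adjusted p = 0.00648). Conditions of 3 libraries were too small for a search for single outlying libraries.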

How the results depend on the processing

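No member reversed its direction in a called comparison under any of the 21 or 22 alternatives run for it. Of 42 pairs of a tested member and a comparison, 21 were called; 15 kept the call in every alternative, 6 lost it in at least 1, and 5 others gained one. The members called were 3 for knockdown with IFNγ where genes needed 5 TPM over all libraries (which leaves out ITGA2 and ITGA3), against 5. For IFNγ in siCTRL cells 1 was called with no filter or with only the conditions compared, against 3, and leaving out 1 library gave 1 to 4. For IFNγ in siMITF cells the count was 0 with no filter and 3 with quantile normalization, median centring or the replicate block, against 1, and leaving out 1 library gave 0 to 3. Under quantile normalization, median centring and the block, 31.3%, 29.8% and 35.7% of all gene IDs were called. For the interaction it was 0 with a pseudocount of 0.1 or 0.5 and with no filter, against 1, and leaving out 1 library gave 0 to 1. With quantile normalization ITGAX under IFNγ in siMITF cells went from 0.11 to -0.31 and ITGA10 under both treatments from 0.41 to -0.14; the cause was not tested. The replicate block kept the call of the ITGB8 interaction. It changed the other calls named with it and no further call of a member or other integrin gene. When only members were summed, 19 of 40 shares moved by more than 1 SD. TPM without depth limits what can be said of genes near 0.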
